A study of Mus musculus with 586 samples.

Results

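At E5.5 the mouse embryo is a short cylinder shortly after implantation, before the primitive streak appears. The data described here are the 20 Geo-seq libraries that compare side P with side A of the epiblast at this stage: 2 embryos, sections 2 to 6 of each, 1 A and 1 P library per section. They were chosen by their labels (stage, section and region code) from 586 samples in the series, so each side has 10 libraries and there are 10 section pairs. Geo-seq is RNA-seq of small groups of cells cut by laser from cryosections, and the deposited values are FPKM (fragments per kilobase of transcript, scaled to the mapped fragments of the library). The embryos were C57BL/6, and the labels name no genotype or treatment. Section 1 was collected undivided at this stage and was not used. The labels do not spell out A and P. As in the published atlas, A is taken as anterior epiblast, P as posterior epiblast, and sections as counted from the distal tip. Later embryos of the same strain and method entered the fit for their spread: 2 at E6.0, 5 at E6.5, 2 at E7.0 and 4 at E7.5.

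The epiblast is the cup of pluripotent cells from which the fetus forms. Around this stage a group of visceral endoderm cells at the distal tip, which secrete the NODAL and WNT inhibitors LEFTY1, CER1 and DKK1, moves to the future anterior side. On the opposite side NODAL, WNT3 and BMP4 signals later induce the primitive streak, whose cells express T, Eomes and Mixl1. The comparison of P with A at E5.5 asks which genes already differ between the sides before the streak forms.

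The libraries were shallow and unequal. Rough depth, taken from the FPKM worth of 1 read, was 1.38 to 2.86 (in units of 1e6 reads) per library, and 3582 to 7644 genes reached 1 FPKM. The A and P libraries of section 3 of embryo 1 had the fewest such genes, 3725 and 3582, and listed 29.9% and 30.7% of 4747 widely expressed genes at 0. The median share of these genes at 0 was 11.1% over the A libraries and 6.56% over the P libraries, and the share was lower in P in 7 of 10 section pairs. Genes detected in most A and P libraries of the fit were thus also listed at 0. A 0 in a single library therefore need not mean absence, and levels are given library by library.

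The epiblast label was checked against markers. Of 25 genes of core and primed pluripotency, 17 were above 0 in all 10 A libraries and 19 in all 10 P libraries, with a summed level of 496 to 1291 FPKM in A and 601 to 1496 in P. Markers of visceral endoderm, the layer that encloses the epiblast, were present as well: the 35 listed summed to 251 to 3900 FPKM in A (median 1807) and 79.3 to 2986 in P (median 1843). Apoa1, an apolipoprotein of this layer, was above 0 in all 20 libraries. At E6.5 the medians of the same list were 572 FPKM in A and 541 in P, so the E5.5 libraries held more endoderm transcript than the libraries with the same codes a day later; this difference was not tested. The endoderm sum was higher in P in 4 of 10 section pairs. Extra-embryonic ectoderm, which adjoins the epiblast proximally, was nearly without its defining genes: Cdx2 was listed at 0 in all 20 libraries and Elf5 reached at most 1.54 FPKM. The 23 markers of that tissue found in the tables summed to 10.8 to 631 FPKM in A and 8.89 to 402 in P, and to more in P in 3 of 10 pairs; its most abundant member, the X-linked homeobox gene Rhox5, had medians of 136 FPKM in A and 93.9 in P. The 13 parietal endoderm markers were higher in P in 8 of 10 pairs (21.5 to 131 FPKM in A, 8.19 to 194 in P). The FPKM sum over all genes was also higher in P in 8 of 10 pairs. Maternal markers stood out in 1 library, A of section 5 of embryo 1, at 1613 FPKM, of which the decidual prolactin gene Prl8a2 gave 1511; the other libraries summed to at most 135 FPKM. Whether other cell types take part in the differences given next was not tested. In pooled tissue, fewer cells of a type and less RNA per cell cannot be told apart.

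**Figure D1:**
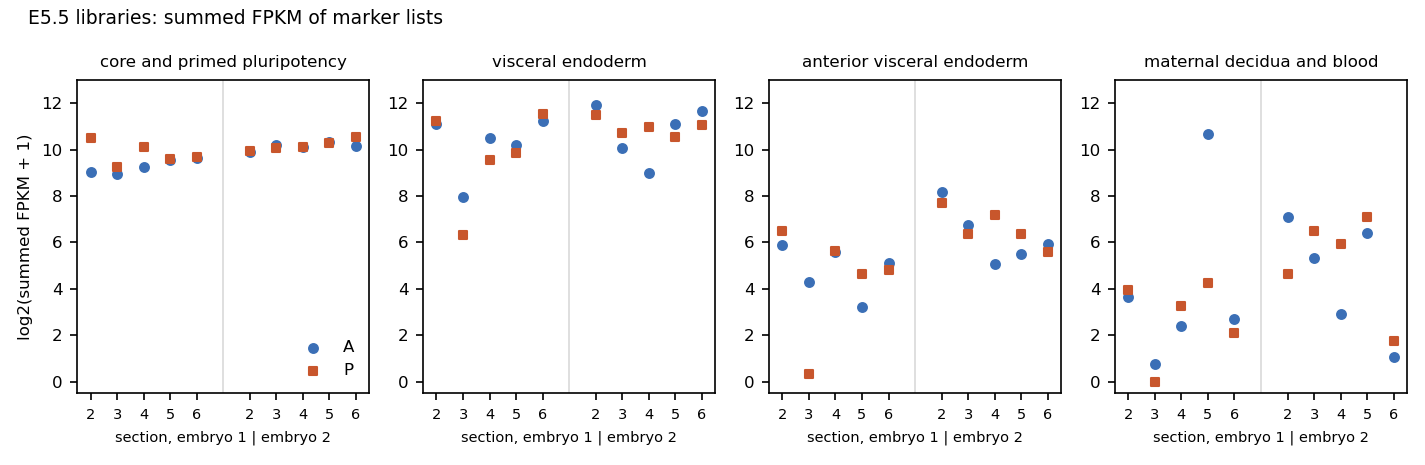
Summed FPKM of 4 marker lists in each E5.5 library, as log2(sum + 1) on the vertical axis, by section (horizontal axis, embryo 1 left of the line and embryo 2 right), with A as circles and P as squares. Pluripotency markers stay within 496 to 1496 FPKM, while endoderm markers range from 79.3 to 3900 and the maternal list peaks at 1613 in A of section 5 of embryo 1.

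On both scalings of the data, 7 genes were higher in P, and no gene was lower. P minus A was taken as the difference of log2(FPKM + 1) within each section and averaged per embryo. The fit was done in limma with the embryo as replicate and a variance weight for each stage, and a gene counts as called at a Benjamini-Hochberg adjusted p under 0.05. With FPKM as deposited, 8 of 8168 genes tested were higher in P, 0.0979% of them, and 0 were lower; 650 genes had an unadjusted p under 0.05. With libraries scaled to equal medians over the 4747 widely expressed genes, 8 were again higher, 0.0979%, and 0 lower, with 477 at an unadjusted p under 0.05. The 7 called both ways, 0.0857% of the genes tested, had 1 sign in both embryos. None of the 7 was called both ways in 5 of the alternative fits, which are named with the leave-outs. The scale understates fold changes of low genes.

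Pttg1 showed the largest difference of the 7. It encodes securin, which holds back the separation of sister chromatids until anaphase. In embryo 1 its levels in sections 2 to 6 were 0, 0, 13.5, 1.08 and 11.5 FPKM in A against 116, 0, 36.8, 26.9 and 65 in P. In embryo 2 they were 0, 19.4, 0, 16.0 and 0 FPKM in A against 88.8, 18.9, 66.8, 13.1 and 55.6 in P. P was higher in 7 pairs, lower in 2 and tied at 0 in section 3 of embryo 1; the sides overlap only through sections 3 and 5. The difference was 3.25 ± 0.43 on the log2 scale (moderated SE, n = 2 embryos, limma adjusted p = 0.00473), and 3.19 ± 0.41 with equal medians (adjusted p = 0.00702). Here and below, SE and p rest largely on a gene's spread at later stages times the stage's weight. They are thus not a measure of how well these 2 embryos agree.

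Cetn3 and Gins4 were also among the 7. Cetn3, which encodes centrin 3 of the centrosome, ranged from 0 to 146 FPKM in A with a median of 9.70 and from 0 to 287 in P with a median of 101, and was higher in P in 8 of 10 pairs. Its difference was 2.54 ± 0.44 (adjusted p = 0.0224), with 3.62 in embryo 1 and 1.46 in embryo 2. This SE, too, rests largely on later stages and does not show how far apart the embryos were. Gins4, a subunit of the GINS complex of the replicative helicase, ranged from 0 to 39.3 FPKM in A (median 2.71) and from 5.51 to 106 in P (median 24.7). P was above A in 9 of 10 pairs, the exception being section 6 of embryo 1, and the difference of 2.36 ± 0.40 (adjusted p = 0.0224) was nearly equal in embryo 1 (2.31) and embryo 2 (2.41).

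The remaining called genes were Pigp, Tmem50a, Elof1 and Eno1. Pigp encodes a subunit of the enzyme that starts the synthesis of glycosylphosphatidylinositol anchors, the lipid anchors that hold proteins such as the NODAL co-receptor CRIPTO on the cell surface. Its level ran from 0 to 93.0 FPKM in A (median 17.4) and from 31.8 to 141 in P (median 82.4), a difference of 3.07 ± 0.49 (adjusted p = 0.0163) with P higher in 7 of 10 pairs. Tmem50a, a small membrane protein gene, had medians of 4.22 FPKM in A and 35.6 in P and differed by 2.18 ± 0.36 (adjusted p = 0.0202, P higher in 8 of 10 pairs). Elof1, a transcription elongation factor, had medians of 38.8 and 70.5 FPKM and differed by 2.08 ± 0.39 (adjusted p = 0.0477, P higher in 7 of 10 pairs). Eno1, the glycolytic enzyme enolase, was under 1 FPKM in 6 A libraries and 1 P library and between 11.0 and 135 FPKM in the others. Its difference was 2.34 ± 0.37 (adjusted p = 0.0163), but P was higher in only 6 of 10 pairs, and where both sides had a value they overlapped. In these genes the sides thus differ in part by how many libraries list almost nothing. Over the 7 genes, 29 of 70 A values and 4 of 70 P values were under 1 FPKM, beside 38.3% and 32.0% over all genes tested. The 7 genes had mean levels of 24.1 to 79.5 FPKM, while genes were tested from a mean of 1 FPKM. The shares over all genes are thus not matched on level and do not show which side is unusual. The 7 genes were selected for higher values in P.

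**Figure D2:**
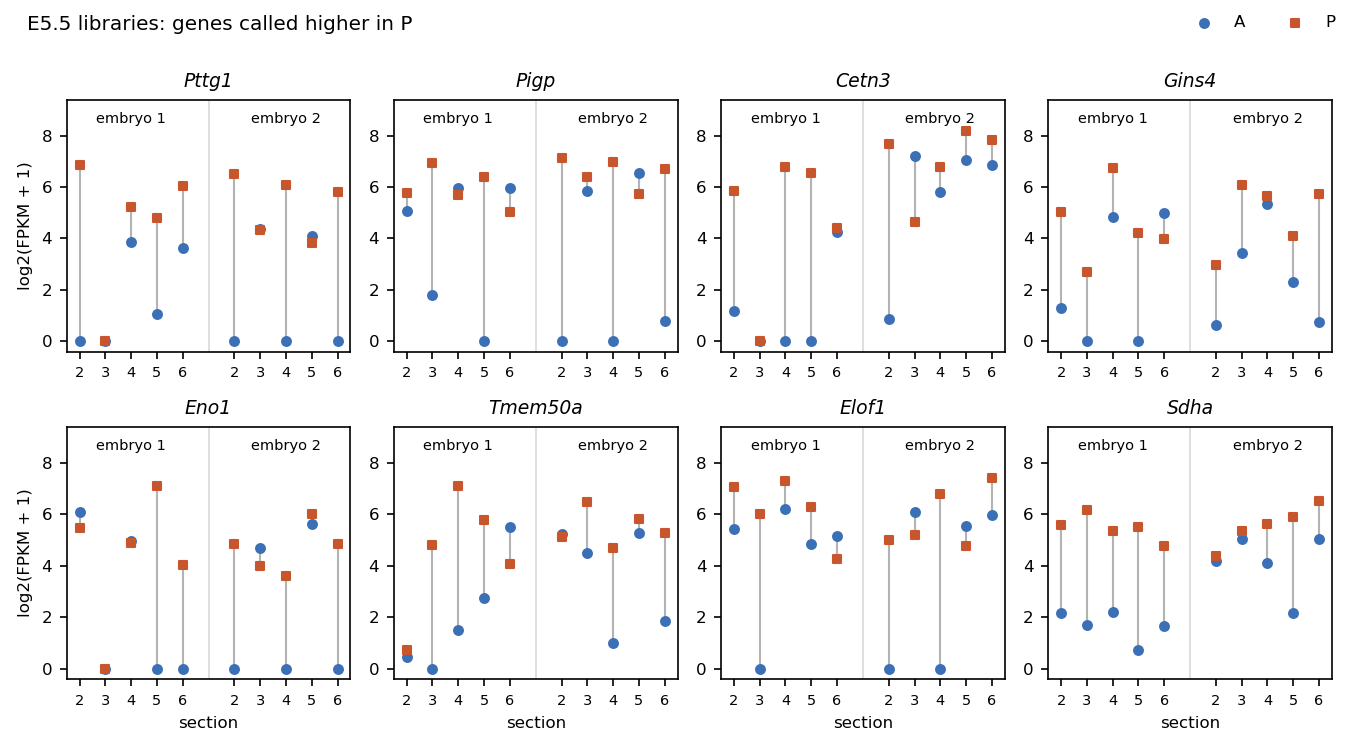
Level of 8 genes in every E5.5 library as log2(FPKM + 1), by section, with A as circles, P as squares and a grey line joining the libraries of 1 section. In the first 7 panels several A libraries lie at or near 0 while P of the same section does not; in Sdha P lies above A in 10 of 10 sections as deposited.

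Sdha was called only with FPKM as deposited, where P was above A in 10 of 10 sections; with equal medians it was above in 9. It encodes the catalytic subunit of succinate dehydrogenase, which serves both the TCA cycle and the respiratory chain. In embryo 1 its levels were 3.47, 2.22, 3.65, 0.646 and 2.18 FPKM in A and 47.0, 70.5, 39.7, 44.9 and 26.4 in P, with no overlap. In embryo 2 they were 17.3, 31.7, 16.3, 3.49 and 32.2 FPKM in A and 19.9, 39.3, 48.7, 58.6 and 89.9 in P, where the ranges overlap though each P library exceeded its own A. The difference was 2.61 ± 0.49 (adjusted p = 0.0477) as deposited and 2.46 ± 0.53 (adjusted p = 0.129) with equal medians. The 2 embryos differed in size, at 3.79 and 1.44, which the SE, resting largely on later stages, does not show. Nudt16l1, which encodes a regulator of the repair factor 53BP1, was called only with equal medians (2.51 ± 0.45, adjusted p = 0.0415) and had adjusted p = 0.0676 as deposited.

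The 7 genes called on both scalings lie on separate chromosomes, apart from Eno1 and Tmem50a. In GENCODE vM21 on GRCm38, the assembly also known as mm10, Pttg1 spans chromosome 11, bases 43420250 to 43426251 on the minus strand. Eno1 lies on chromosome 4 at 150236721 to 150248879 (plus strand) and Tmem50a on the same chromosome at 134897849 to 134915024 (minus strand). Gins4 is on chromosome 8, Elof1 on 9, Cetn3 on 13 and Pigp on 16. Exons of Pigp overlap those of Ttc3 on the other strand and of Gm15310, and exons of Cetn3 overlap Gm17259 on the other strand. The sources used here do not state a stranded count, so the reads of such partners may not be told apart. Eno1 has near-identical processed copies in the mouse genome, between which reads may have been divided, so its values are uncertain.

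The calls depend on single embryos and sections; the values that follow are as deposited. Pttg1 passed in every fit that left out 1 embryo or 1 section (adjusted p from 2.12e-04 to 0.0479). Pigp did not pass without embryo 2 (adjusted p = 0.192) or without section 5 of embryo 1 (0.083), and Cetn3 not without embryo 1 (0.740) or section 2 (0.227). Without embryo 1 or embryo 2 Gins4 had adjusted p = 0.365 and 0.115 and Eno1 0.123 and 0.120. Eno1 was also above the threshold without section 5 (0.0604), section 6 (0.0546) or section 5 of embryo 1 (0.132). Tmem50a did not pass without embryo 1 (0.473) or section 4 (0.0981). Elof1 did not pass without embryo 1 (0.365), embryo 2 (0.205), section 2 (0.0798), section 3 (0.0554), section 4 (0.146) or section 3 of embryo 1 (0.167), and Sdha not without embryo 1 (0.826) or section 5 (0.0722). Without section 3 of embryo 1, whose libraries hold the fewest genes, 14 genes were called as deposited, and without section 5 of embryo 1, whose A library holds maternal transcripts, 12 were (10 higher and 2 lower). Of the 7 genes, 4 and 5 were called on both scalings in these 2 fits. The number of the 7 called on both scalings was 2 without embryo 1, 3 without embryo 2, 4 without section 2 or section 3, 5 without section 4 or section 5, and 6 without section 6. It was 0 in each of 5 other fits: without pairing A and P of an embryo, on the 10 section differences, on the E5.5 embryos alone, without trend and robust moderation, and with a pseudocount of 5.

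The 2 embryos shared little of the difference between sides. Across the 8168 genes, P minus A of embryo 1 and of embryo 2 correlated by 0.035, and 53.6% of genes had the same sign (0.0337 and 50.2% with equal medians). The 2 embryos of E6.0 correlated as little, by -0.0127 with 55% of genes of the same sign (-0.029 and 49.9% with equal medians). The E6.0 P libraries were uneven, with summed pluripotency markers as low as 40.0 FPKM beside a median of 1333. At E6.5, any 2 of 5 embryos correlated by 0.12 to 0.336, with 39.0% to 63.3% of genes of the same sign, and at E7.0 the 2 embryos correlated by 0.46. Each of these values runs over genes, and genes do not vary independently of each other. Fitted over all stages, the variance of P minus A between E5.5 embryos was 8.01 times that between E6.5 embryos as deposited and 15.5 times with equal medians. The median SE of a gene's difference was 0.568 at E5.5 and 0.127 at E6.5, so the 95% interval of a typical E5.5 gene reached 1.19 to each side on the log2 scale. The sides also differed by a general shift. The median difference over all genes was 0.34 in embryo 1 and 0.16 in embryo 2 as deposited, and 0.02 and 0.07 with equal medians. Equal medians took out most of this shift but did not narrow the spread, as the median SE was then 0.704. The FPKM sum was higher in P in 8 of 10 section pairs.

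**Figure D3:**
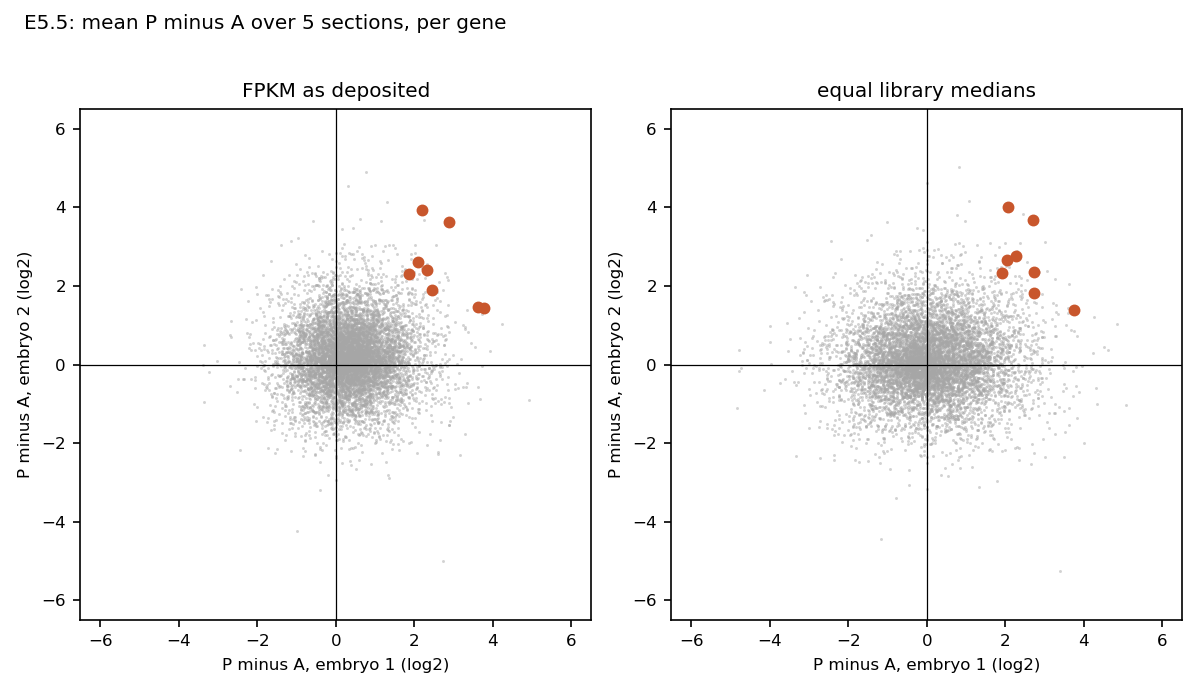
Mean P minus A over 5 sections (log2) of each of 8168 genes in embryo 1 (horizontal) and embryo 2 (vertical), as deposited on the left and with equal library medians on the right; large points are the 8 genes called on each scaling. The cloud is round, with r of 0.035 and 0.0337, and the called genes lie at its upper right edge.

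Counting sections gave a second, untested view. In all 10 section pairs and on both scalings, 7 genes were higher in P, 0.0857% of the genes tested, and 1, Iars, was lower in all 10, 0.0122%. Taken singly, the scalings gave 26 higher and 2 lower as deposited, and 8 higher and 7 lower with equal medians. Cenpn, a kinetochore gene that reads the centromeric nucleosome, ranged from 0 to 8.09 FPKM in A (median 0.126) and from 1.20 to 27.1 in P (median 13.8), a difference of 2.80. Grhpr, which encodes glyoxylate and hydroxypyruvate reductase, had means of 6.15 and 28.4 FPKM, Cab39, a scaffold of the LKB1 kinase complex, 3.67 and 12.5, and Anxa7, an annexin, 4.65 and 14.2. Kdm2b, which recruits a Polycomb complex to CpG islands, had means of 8.07 FPKM in A and 24.2 in P. Ankle2 and Rasgrp2 complete the 7. Iars, the isoleucyl-tRNA synthetase gene, ran from 5.01 to 65.7 FPKM in A (median 29.8) and from 0.463 to 38.6 in P (median 5.28), a difference of -1.73 with -2.03 in embryo 1 and -1.44 in embryo 2. None of these 8 genes is among the 7 called in the fit. Sections of 1 embryo are not replicates, and this count has no test. With this many genes tested, some would have 1 sign in all 10 pairs even if signs were random. The genes named here may be such genes.

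No gene passed as lower in P, and the smallest adjusted p of a lower gene was 0.132 as deposited and 0.106 with equal medians. The gene with 0.132 was Lman1, a cargo receptor between endoplasmic reticulum and Golgi, with medians of 25.2 FPKM in A and 8.58 in P, a difference of -1.90 ± 0.45, and P lower in 9 of 10 pairs. Apex2, an endonuclease of base excision repair, was at 0 to 53.6 FPKM in A (median 8.21) and 0 to 3.60 in P (median 0.332). Its difference was -2.31 ± 0.58 (adjusted p = 0.139), with P lower in 8 pairs, and its exons overlap Alas2 and Pfkfb1 on the other strand. It was called as lower when section 3 of both embryos was left out (-3.06, adjusted p = 0.0172).

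No pluripotency gene passed the test. Pou5f1, which encodes OCT4, was at 1.5 to 141 FPKM in A (median 90.4) and 23.9 to 286 in P (median 134), higher in P in 8 of 10 pairs, with a difference of 1.14 ± 0.48 and adjusted p = 0.539. The lowest value, 1.5 FPKM, is A of section 3 of embryo 1. Nanog had almost the same level on both sides, with medians of 45.3 FPKM in A and 41.3 in P and an interval of -1.40 to 1.40 around a difference of 0.00. Sox2 went opposite ways in the 2 embryos, by 1.65 in embryo 1 and by -0.59 in embryo 2 (adjusted p = 0.933). Dnmt3b, the de novo DNA methyltransferase of the epiblast, was at 117 to 321 FPKM in A and 169 to 409 in P. Utf1 had medians of 42.2 and 61.4 FPKM and Fgf5, a ligand gene of the primed epiblast, 16.7 and 23.5; neither passed (adjusted p = 0.949 and 0.536). Of 24 pluripotency genes tested, 0 were called on either scaling, with a median difference of 0.38 beside 0.26 over all genes, and 0.06 beside 0.06 with equal medians. The 4 naive pluripotency genes tested had 0 calls and a median of 0.15. Among them Dppa3 (Stella) had medians of 40.3 FPKM in A and 8.5 in P (-1.37 ± 0.56, adjusted p = 0.511).

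No anterior epiblast gene passed either. Otx2, a homeobox factor of the epiblast and of the anterior endoderm, ran from 0.260 to 101 FPKM in A (median 11.4) and from 0.248 to 51.6 in P (median 25.0), with a difference of 0.79 ± 0.55 and an interval of -0.37 to 1.94. Its highest value was A of section 2 of embryo 2. Pou3f1, a POU factor of the future neural ectoderm, had medians of 27.3 FPKM in A and 36.8 in P, and was higher in P in 8 of 10 pairs (0.62 ± 0.74, adjusted p = 0.908). Of 6 genes tested in the anterior epiblast and neural list, 0 were called, with a median of 0.70, and 0.37 with equal medians. The list's median was 0.25 in embryo 1 and 1.04 in embryo 2.

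**Figure D4:**
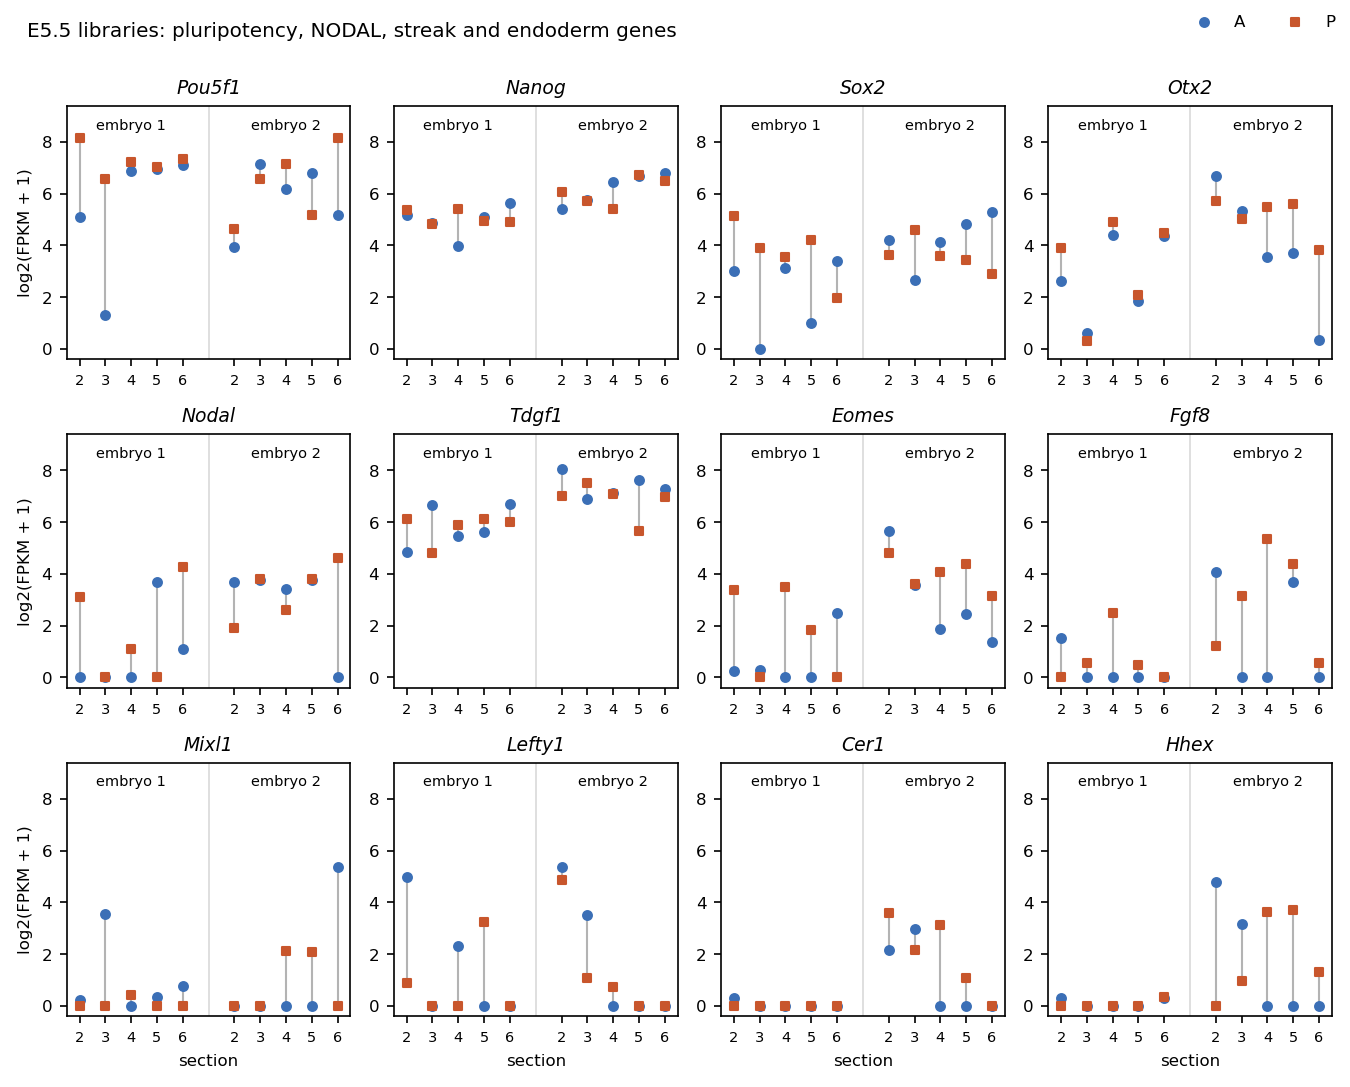
Level of 12 pluripotency, NODAL, streak and endoderm genes in every E5.5 library as log2(FPKM + 1), by section, with A as circles, P as squares and a grey line joining the libraries of 1 section. Nanog and Tdgf1 are above 0 in 20 libraries, while Cer1 and Hhex reach 1 FPKM or more only in embryo 2.

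Primitive streak genes ranged from listed at 0 to well expressed. T, which encodes brachyury, and Mesp1, a factor of early mesoderm, were listed at 0 in all 20 libraries, while at E6.5 T was above 0 in 28 of 30 P libraries. Wnt3 was above 0 only in P of sections 5 and 6 of embryo 1, at 2.67 and 0.936 FPKM. Mixl1, a homeobox gene active in the nascent streak, reached 3.25 and 3.32 FPKM in P of sections 5 and 4 of embryo 2, but its highest values were in A: 39.9 FPKM in section 6 of embryo 2 and 10.5 in section 3 of embryo 1. Its difference was -0.56 ± 0.94, and the interval of -2.54 to 1.42 leaves out the E6.5 difference of 3.28; the difference between the stages had adjusted p = 0.133. Eomes, a T-box factor of streak and endoderm, had medians of 2.15 FPKM in A and 9.88 in P (1.07 ± 1.04, adjusted p = 0.887), and Fgf8 0 and 0.888 FPKM (0.89 ± 1.24, adjusted p = 0.925). Cyp26a1, a retinoic acid-degrading enzyme gene, reached 82.5 FPKM in A and 62.8 in P (medians 6.81 and 15.7), and Fst, the gene of the activin antagonist follistatin, 8.53 and 56.3 FPKM (medians 0.732 and 4.65); these 2 were chosen after their values were seen. Of 10 streak genes tested, 0 were called and the median was 0.54 (0.47 with equal medians). Their intervals reached a median of 2.16 to each side, beside 1.19 over all genes. Of these 10, 9 had 1 sign in both embryos on both scalings, 6 higher and 3 lower, beside 40.8% of all genes tested; the streak and anterior visceral endoderm lists share Eomes, Foxa2, Gsc and Lhx1.

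Several genes of the NODAL pathway were expressed on both sides. Of the 20 listed, 2 were above 0 in all A libraries and 3 in all P libraries. Acvr1b, a receptor gene of the list, was above 0 in only 1 library, at 0.105 FPKM in P. Nodal itself was above 0 in 5 of 10 libraries of embryo 1 and 9 of 10 of embryo 2, with medians of 5.35 FPKM in A and 6.40 in P and a difference of 0.58 ± 1.10. Tdgf1, the gene of the co-receptor CRIPTO, was far higher than Nodal on the FPKM scale, at 28.1 to 265 in A and 27.1 to 179.5 in P (-0.31 ± 1.71). Its interval, -4.03 to 3.41, was the widest of the genes tested from the fixed list. Foxh1, the DNA-binding partner of the SMADs in this pathway, had a difference of 1.06 ± 0.73. The inhibitor gene Lefty2 was above 0 in 1 A and 3 P libraries, all of embryo 2. Of 12 pathway genes tested 0 were called, with a median of -0.01 beside 0.26 over all genes.

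Genes of the anterior visceral endoderm were found on both sides. Cer1 was above 0 in 1 of 10 libraries of embryo 1 and 6 of 10 of embryo 2. In embryo 2 it was at 3.50 and 6.78 FPKM in A of sections 2 and 3, and at 11.1, 3.43, 7.78 and 1.10 in P of sections 2 to 5. Hhex, a homeobox gene of this endoderm, was at 26.6 and 7.99 FPKM in A of sections 2 and 3 of embryo 2 and at 0 in A of sections 4 to 6, while P of sections 2 to 6 had 0, 0.961, 11.5, 11.9 and 1.47. Lefty1 was highest in section 2 of A in both embryos, at 30.5 FPKM in embryo 1 and 40.3 in embryo 2. In P it was highest in section 2 of embryo 2, at 28.0 FPKM, and in embryo 1 in section 5, at 8.36. In embryo 2 it was 10.4 FPKM or less from section 3 on and at 0 in sections 5 and 6. The summed list was higher in P in 5 of 10 pairs, and was largest in section 2 of embryo 2, at 287 FPKM in A and 210 in P. Dkk1 was highest in embryo 1, at 40.5 FPKM in P of section 2, and at most 7.28 FPKM in embryo 2. Lefty1 differed by -0.54 ± 0.80 between sides and Dkk1 by 0.73 ± 1.02, neither passing (adjusted p = 0.928 and 0.925). Of 7 genes of this list tested, 0 were called (median 0.51, and 0.28 with equal medians). Their intervals reached a median of 1.96 to each side, beside 1.19 over all genes.

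The remaining signalling lists had no called gene. Among 21 FGF and ERK genes tested (median 0.28), Fgf15, a secreted FGF, had medians of 0 FPKM in A and 13.5 in P and a difference of 2.12 ± 0.85 (adjusted p = 0.489). Fgfr1, the receptor, had medians of 1.3 and 5.5 FPKM (1.12 ± 0.63). Of 15 WNT pathway genes tested (median 0.31), the receptor gene Fzd7 had medians of 2.4 FPKM in A and 10.3 in P and was higher in P in 8 of 10 pairs (1.09 ± 0.51, adjusted p = 0.611). The BMP list had 9 genes tested (median 0.49): the signal transducer Smad1 had medians of 0.5 and 9.9 FPKM (1.29 ± 0.50, adjusted p = 0.466), and the target Id3 50.4 and 89.6. Bmp4 itself was at most 4.78 FPKM in any library and was not tested.

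Of the 9 genes called on either scaling, 3 belong to one of the 27 lists and 6 (Pigp, Cetn3, Gins4, Tmem50a, Elof1 and Nudt16l1) to none. Each count of called members that follows stands beside 0.0979% of all genes tested on either scaling. Of 33 G2 and M phase genes tested, Pttg1 alone was called, with a list median of 0.52 (0.24 with equal medians). Cenpa, the centromeric histone, had medians of 25.8 FPKM in A and 47.7 in P and was higher in P in 10 of 10 pairs as deposited (1.34 ± 0.33, adjusted p = 0.134), whereas Kif23, a kinesin of cytokinesis, was lower in 8 pairs (-1.14 ± 0.52, adjusted p = 0.579). Of 24 G1 and S genes 0 were called (median 0.18); the polymerase clamp Pcna differed by 1.17 ± 0.38 (adjusted p = 0.318). Of 47 nuclear genes of the respiratory chain and TCA cycle, Sdha was called as deposited and 0 with equal medians, with list medians of 0.44 and 0.08. Cyc1, cytochrome c1 of complex III, was higher in P in 9 of 10 pairs (1.31 ± 0.34, adjusted p = 0.173), and Ndufs3 of complex I in 8 (1.42 ± 0.45, adjusted p = 0.311). Of 20 glycolysis genes Eno1 was called, with medians of 0.38 and 0.06 for the list; the liver-type phosphofructokinase Pfkl differed by 0.85 ± 0.38 (adjusted p = 0.559).

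In the other lists 0 genes were called on either scaling. Ribosomal protein genes (42 tested) had a median of 0.27 as deposited and -0.07 with equal medians, and proteasome genes (31) 0.28 and -0.02; Psmd14, a deubiquitinase of the proteasome lid, was higher in P in 10 of 10 pairs as deposited (1.26 ± 0.37, adjusted p = 0.249). The 43 genes of the secretory pathway and protein folding had medians of 0.39 and -0.04, and the 32 of DNA repair 0.31 and 0.11. The 24 genes of epithelium and polarity had medians of -0.06 and -0.31, the 12 of extracellular matrix 0.21 and -0.03, the 8 of DNA methylation 0.26 and 0.09, and the 13 of amino acid and iron transport 0.39 and 0.04. The 9 immediate early and stress genes had medians of 0.27 and 0.07, and the 14 of apoptosis and p53 targets 0.38 and 0.25. Markers of other tissues had medians of 0.01 and -0.34 for visceral endoderm (18 tested), 0.05 and 0.08 for extra-embryonic ectoderm (5), 0.51 and 0.50 for parietal endoderm (7) and -0.54 and -0.72 for maternal tissue (3). Ttr, a transport protein gene of visceral endoderm, was at 0 to 299 FPKM in A and 0 to 216 in P (0.19 ± 0.98), and Amn, part of its uptake receptor, at 0 to 47.3 and 0 to 50.6. In 14 of 27 lists the medians of the 2 embryos had opposite signs with equal medians.

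**Figure D5:**
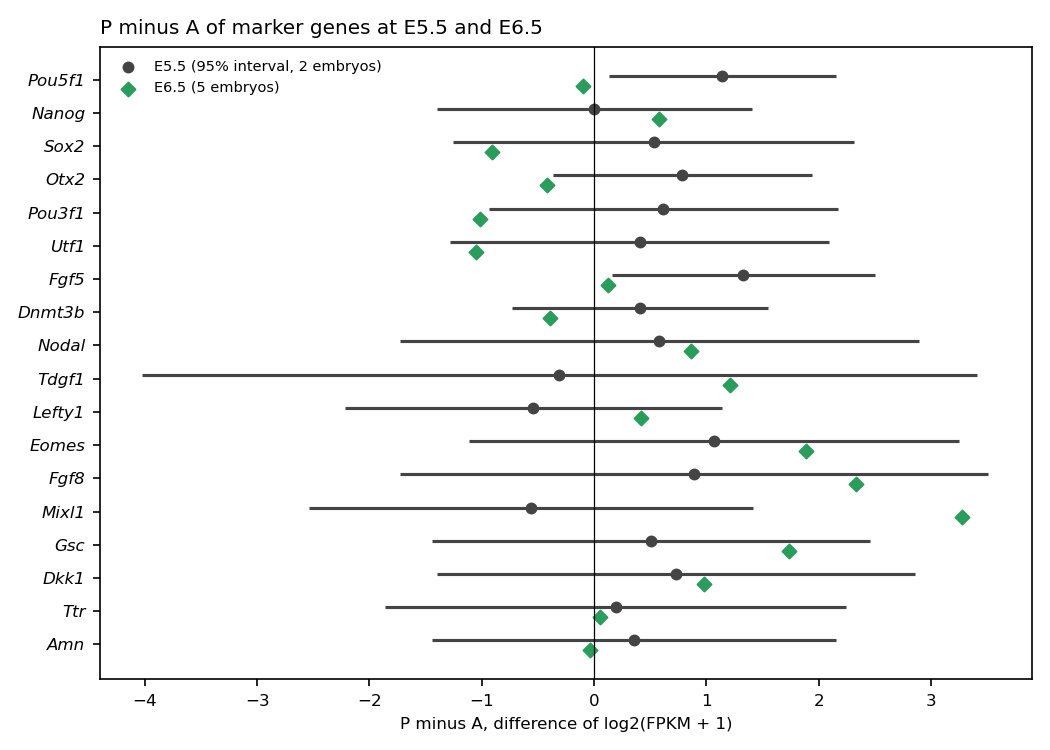
P minus A of 18 marker genes as a difference of log2(FPKM + 1) (horizontal axis): points with lines are the E5.5 difference and its 95% interval from limma (2 embryos), diamonds the E6.5 difference (5 embryos). The E5.5 intervals are wide, from -4.03 to 3.41 for Tdgf1, and the E6.5 value lies outside the E5.5 interval for Pou5f1, Otx2, Pou3f1, Fgf5 and Mixl1. The change between stages passed in none of them (limma adjusted p = 0.475, 0.564, 0.560, 0.567 and 0.133 in that order).

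None of the genes called at E6.5 passed at E5.5, but the E5.5 SE rests largely on a gene's spread at later stages. Of the 10 streak genes tested, 7 were called at E6.5. The median E5.5 interval of these 10 reached 2.16 to each side, beside 1.19 over all genes. A missing call at E5.5 therefore does not show that such genes were equal on both sides. In the same fit, 75 genes were higher in P at E6.5 (0.918% of those tested) and 43 lower (0.526%). At E5.5, 50 of the 75 and 28 of the 43 had a difference above 0, with medians of 0.22 and 0.41 beside 0.26 over all genes, and 0 of the 118 were called. With equal medians the numbers above 0 were 41 and 24. Gsc and Fgf8, for example, differed by 1.74 ± 0.21 and 2.34 ± 0.28 at E6.5 and by 0.51 ± 0.93 and 0.89 ± 1.24 at E5.5, and neither change between stages passed (adjusted p = 0.796 and 0.828). Pou3f1 and Utf1, lower in P at E6.5 by -1.02 ± 0.17 and -1.05 ± 0.18, had E5.5 differences of 0.62 and 0.41, and here too the change did not pass (adjusted p = 0.560 and 0.687).

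The 8 genes called at E5.5 as deposited had differences of -1.06 to -0.11 at E6.0 and of -0.25 to 0.11 at E6.5. No gene at all was called at E6.0, so a missing call there says nothing of these genes. The E6.0 P libraries were also uneven. Their summed pluripotency markers fell as low as 40.0 FPKM, beside a median of 1333 and a lowest value of 1189 in A. The highest E6.0 P sums were 1248 FPKM for parietal endoderm and 2339 for maternal markers. What this does to the E6.0 differences was not tested. Tested as a difference between stages, 14 genes had a higher P minus A at E5.5 than at E6.0 (0.171% of those tested) and 0 a lower one. Against E6.5 6 were higher (0.0735%) and 0 lower. Pttg1 differed by -0.45 at E6.0 and by -0.05 ± 0.10 at E6.5, and the E5.5 difference exceeded these by 3.70 (adjusted p = 0.00295) and 3.29 (adjusted p = 0.00548). Pigp, Cetn3, Gins4, Eno1 and Tmem50a were also called against both stages, with E6.5 differences of -0.25, -0.01, -0.18, -0.08 and 0.09. Elof1 and Sdha were called against E6.0, and against E6.5 had adjusted p = 0.0517 and 0.0577. With equal medians Sdha was not called against E6.0 (adjusted p = 0.164), and Elof1 was called against E6.5 (adjusted p = 0.0208). The comparisons with E6.0 and E6.5 share the E5.5 embryos and are not independent of each other, or of the calls at E5.5.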

How the data were processed

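FPKM tables, 1 per embryo, were made by the authors with TopHat2 2.0.8b and Cufflinks 2.1.1 on mm10, per the submitters' processing notes; the sources used here give neither annotation nor options. Of 586 samples, 20 libraries (E5.5, A and P, sections 2 to 6) are described, and 148 A and P libraries of 15 embryos entered the fit. 3 tables were not used, because their labels give no P region or fit another embryo, and 436 of the 584 sample columns in the 18 tables were left out in all. No 2 of the 20 libraries were identical. Depth was estimated from the most frequent low value of FPKM times length, taken as 1 read, in genes with a single transcript over 1.5 kb.

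The mean P minus A of log2(FPKM + 1) per embryo, paired by section, was modelled on stage with limma 3.58.1 under R 4.3.3, using a variance weight per stage, trend and robust moderation, and Benjamini-Hochberg adjustment at 0.05. Genes needed a mean of 1 FPKM at E5.5 and at E6.5, which left 8168 of 23361. SE is the moderated standard error; with 2 embryos at E5.5 it rests largely on the gene's spread at later stages times the stage's weight. Equal medians scale each library to the same median over 4747 genes with 1 FPKM in 90% of libraries. A and P of the same embryo are paired by origin: their deviations from the stage means correlated by 0.559 to 0.85 at E6.5, and by 0.356 at E5.5. The procedure was tested on simulated normal values drawn at each gene's fitted spread and stage weight. These values follow the fitted model and hold no excess of values at 0, so they do not test its assumptions.

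Named genes are up to 12 each way called on both scalings with a difference of 1 and a mean of 5 FPKM, filled with genes of 1 sign in all 10 section pairs, up to 4 genes of each of 27 lists by p, and 31 fixed genes. The comparison, the members and the lists were chosen with earlier results of these data known. Alternatives were other weights, pairing, pseudocounts, filters, scalings, and leaving out embryos and sections. Figures used Python 3.11.15, pandas 2.3.3, numpy 2.4.6 and matplotlib 3.10.9.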

Additional observations from a re-analysis of the deposited data

Results flagged for a closer look

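Of 48 groups of 10 libraries examined for an outlying library, 8 had one, where chance gives about 1 in 20. The groups share libraries, and several were flagged for the same library. They are thus not independent, and whether 8 is more than chance gives was not tested. P of section 3 of embryo 1 had 3582 genes at 1 FPKM and 30.7% of widely expressed genes at 0, apart from the other 9 P libraries. Pttg1 and Cetn3 were at 0 and Eno1 at 0.0005 on the log2(FPKM + 1) scale in that library alone among P libraries. Tmem50a was lowest among P libraries in section 2 of embryo 1, at 0.745 on the same scale. Among A libraries, the summed anterior visceral endoderm markers stood apart at 287 FPKM in section 2 of embryo 2, and the summed maternal markers at 1613 FPKM in section 5 of embryo 1.

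P minus A differed between E5.5 and E6.0 by a test of the difference for 8 of the named genes: by 2.90 for Cetn3, 2.36 for Elof1, 3.40 for Eno1, 2.64 for Gins4, 3.18 for Pigp, 3.70 for Pttg1, 3.01 for Sdha and 2.29 for Tmem50a. Between E5.5 and E6.5 it differed for 6: by 2.55 for Cetn3, 2.42 for Eno1, 2.54 for Gins4, 3.32 for Pigp, 3.29 for Pttg1 and 2.09 for Tmem50a. The 8 genes are those called at E5.5 as deposited. Both comparisons use the same E5.5 embryos and are not independent of those calls. With equal medians Sdha was not called against E6.0 (limma adjusted p = 0.164), and Elof1 was called against E6.5 (adjusted p = 0.0208). The E6.0 P libraries were uneven, with summed pluripotency markers as low as 40.0 FPKM beside a median of 1333, and the effect of this was not tested.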

How the results depend on the processing

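The counts depend on how the spread at E5.5 is estimated. The numbers that follow are genes called as deposited, with equal medians, and on both scalings with 1 sign in both embryos, which were 8, 8 and 7. With equal weights for all embryos, as if E5.5 embryos varied no more than later ones, they were 1537, 1484 and 1085, and the stage differences rose from 14 to 1133 against E6.0 and from 6 to 972 against E6.5. With the E5.5 embryos alone they were 50, 0 and 0. Without the replicate block, that is without pairing A and P of an embryo, all 3 were 0 (100 and 275 genes at an unadjusted p under 0.05). With the 10 section differences and the embryo as a random block they were 1, 0 and 0, and without trend and robust moderation 1, 0 and 0. A pseudocount of 0.1 gave 22, 16 and 16 and a pseudocount of 5 gave 1, 0 and 0. A mean above 0 as filter gave 15 as deposited. Leaving out 1 embryo gave 4 to 30, 4 to 42 and 3 to 23, and for the stage differences 5 to 42 against E6.0 and 4 to 21 against E6.5. As deposited the count was 16 without section 2, 73 without section 3, 14 without section 4 and 43 without section 5. With equal medians it was 18 without section 5, and on both scalings 12 without section 3 and 16 without section 5. Scaling to equal FPKM sums gave 15 and to each library's own median 21, both as deposited otherwise. Against E6.0, 7 genes were called with equal medians. The alternatives without section 3 and without section 5 of embryo 1 were chosen after seeing the data; the first gave 14 as deposited. The cause of these changes was not tested. All 7 genes called on both scalings were called there too with equal weights, a pseudocount of 0.1 or a mean above 0, and 0 of them with a pseudocount of 5, the E5.5 embryos alone, section differences, no trend and robust moderation, or no pairing. No gene named changed sign where it was called.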
